A study of Mus musculus with 39 samples.

Results

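Cystatins are small inhibitors of cysteine proteases, and 7 genes taken as cystatins of the reproductive tract (Cst9, Cst12, Cst8, Cst11, Cst13, Cst3 and Cst6) were followed here in mouse testis. The genes were listed by name, except that Cst9 was chosen by its measured signal, which was low in 1 mutant line (lrKO). Its lrKO values are therefore given below as a description with no test. Of the 7, 6 had a probe set annotated with that symbol alone, and 4 (Cst9, Cst12, Cst13 and Cst3) passed the filter on dim signal, out of 19007 tested genes and 22180 genes with such a probe set. Cst8 was not analysed here.

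Whole testes of 39 mice were measured on Affymetrix arrays, 1 array per animal, and all values are log2 intensities normalized by the authors with RMA, so a difference of 1 is a 2-fold difference. Wild-type littermates (WT, n = 8 at each age) were set beside 3 lines that combined a Cre transgene with floxed Prkar1a. These were Sf1:Cre,Prkar1afl/fl (prKO, n = 4 at 2 weeks and 3 at 2 months), Amh:Cre,Prkar1afl/fl (srKO, n = 4 and 4) and Cyp11a1:Cre,Prkar1afl/fl (lrKO, n = 4 and 4). Prkar1a encodes a regulatory subunit that restrains protein kinase A, the kinase activated by cyclic AMP. Sf1:Cre acts early, in somatic precursors of the gonad. Amh:Cre acts in the Sertoli cells that support germ cells within the tubules, and Cyp11a1:Cre in the steroidogenic Leydig cells between them. Each Cre acts in only some cells of the organ, and the labels give no recombination rate.

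Type 2 cystatins are secreted proteins, and cystatin C (Cst3), present in most body fluids, is the best known of them. They bind papain-like cysteine proteases such as cathepsins B, H, L and S. The genes of the type 2 family lie side by side, and several are used mainly in the male tract. Cst8 (also called CRES), Cst11 and Cst12 belong to a subgroup of the testis and epididymis that lacks sites needed to inhibit papain-like proteases. Cst9 (testatin) was first found in the fetal testis, where pre-Sertoli cells express it, and Cst13 is a cystatin of the testis. Cst6 (cystatin E/M) is best known from skin.

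In the RefSeq annotation of assembly GRCm38.p6, Cst11, Cst12, Cst8, Cst13, Cst9 and Cst3 lie on chromosome 2 among 8 protein-coding genes in a row. The order is Cst11, Cstdc1, Cst12, Cst8, Cst13, Cst9, Cstdc2, Cst3, so 2 cystatin-domain genes that are not on the list, Cstdc1 and Cstdc2, lie between its members. Cst6 is on another chromosome. The 250 bases before the annotated start of the 4 tested genes are shown because neighbours in this row had unlike values in the same arrays. Each is given 5' to 3' on the strand of its gene, from RefSeq (GRCm38.p6), with motif matches in capitals.
Cst12: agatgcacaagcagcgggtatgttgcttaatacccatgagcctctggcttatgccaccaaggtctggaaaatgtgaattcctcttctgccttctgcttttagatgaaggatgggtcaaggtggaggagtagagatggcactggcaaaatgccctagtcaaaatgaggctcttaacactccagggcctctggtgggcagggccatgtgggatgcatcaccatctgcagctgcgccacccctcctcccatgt
Cst13: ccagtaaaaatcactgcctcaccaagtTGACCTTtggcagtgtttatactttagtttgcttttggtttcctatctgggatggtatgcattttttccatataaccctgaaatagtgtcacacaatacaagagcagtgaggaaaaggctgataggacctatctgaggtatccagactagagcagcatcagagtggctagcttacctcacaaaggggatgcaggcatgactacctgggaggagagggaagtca
Cst9: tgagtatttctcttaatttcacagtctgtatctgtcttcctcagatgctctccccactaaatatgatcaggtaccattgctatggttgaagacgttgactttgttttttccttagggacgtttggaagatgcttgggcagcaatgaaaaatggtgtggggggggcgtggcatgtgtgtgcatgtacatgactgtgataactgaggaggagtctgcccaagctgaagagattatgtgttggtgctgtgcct
Cst3: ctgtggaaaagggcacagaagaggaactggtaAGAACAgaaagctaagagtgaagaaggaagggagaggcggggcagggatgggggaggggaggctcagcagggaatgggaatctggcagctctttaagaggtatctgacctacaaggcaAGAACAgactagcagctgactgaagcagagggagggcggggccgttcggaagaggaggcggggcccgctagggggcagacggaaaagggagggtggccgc
The Cst12 sequence is chr2:148789115-148789364 (+ strand), that of Cst13 is chr2:148819849-148820098 (+), that of Cst9 is chr2:148834897-148835146 (+) and that of Cst3 is chr2:148875513-148875762 (- strand). Both strands were searched for 5 short motifs, and the share of 32851 promoters of the same length with a match is given for each. These were the full cyclic AMP response element TGACGTCA (1.55% of promoters), its half-site TGACG (17.8%), the SF1 core AAGGTCA (4.08%), the androgen receptor half-site AGAACA (16.1%) and the SOX core AACAAT (9.42%). TGACG is part of TGACGTCA, so those matches overlap. Cst13 held the SF1 core on the other strand, as TGACCTT, from 223 to 217 bases before its start. Cst3 held the androgen receptor half-site at 218 to 213 and at 100 to 95 bases before its start. Neither Cst9 nor Cst12 held a match in this window. The GC content was 52.8% for Cst12, 44.8% for Cst13, 45.6% for Cst9 and 59.6% for Cst3, against a median of 52.4% over all promoters (quartiles 45.2% and 61.2%). Matches are a description of these letters and were not tested as binding sites.

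Values from all 39 arrays lay between 2.54 and 13.62. Prkar1a itself was lower than in WT in prKO at 2 weeks (log2 change -0.78), in prKO at 2 months (-0.30) and in srKO at 2 weeks (-0.48). It was not called in lrKO arrays of 2 weeks or 2 months (0.05 and 0.04), and in arrays labelled srKO at 2 months it was higher (0.24), so these group names are used below as labels. WT replicates 1 to 4 and 5 to 8 separated at both ages in some of these measures, and the labels name no batch. The mean of the cysteine protease list at 2 weeks was 8.32 to 8.56 in the first set and 8.12 to 8.19 in the second. At 2 months Cst12 was 8.52 to 8.73 against 8.31 to 8.39, and Cstdc1 7.32 to 7.60 against 6.63 to 7.15. Results were repeated against each set. Among the prKO arrays at 2 months, replicate 1 stood apart in epididymal marker genes. Its mean over 14 tested markers was 7.32, against 5.03 and 5.13 in the other two and 4.98 to 5.40 in WT, and the cystatins of the tract are also used in the epididymis. Some results at 2 months are also given without this array, which leaves 2 prKO arrays. It was also the lowest prKO array in the macrophage (7.24), Leydig cell (9.63), endothelial (7.17) and cysteine protease (8.44) list means. It was the highest in the peritubular myoid (8.91) and meiotic prophase (9.45) lists. At 2 weeks prKO replicate 3 had an epididymal mean of 5.94, against 5.12 to 5.27 in the other prKO arrays and 5.06 to 5.56 in WT. That 2-week array was kept in the main fits.

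**Figure D1:**
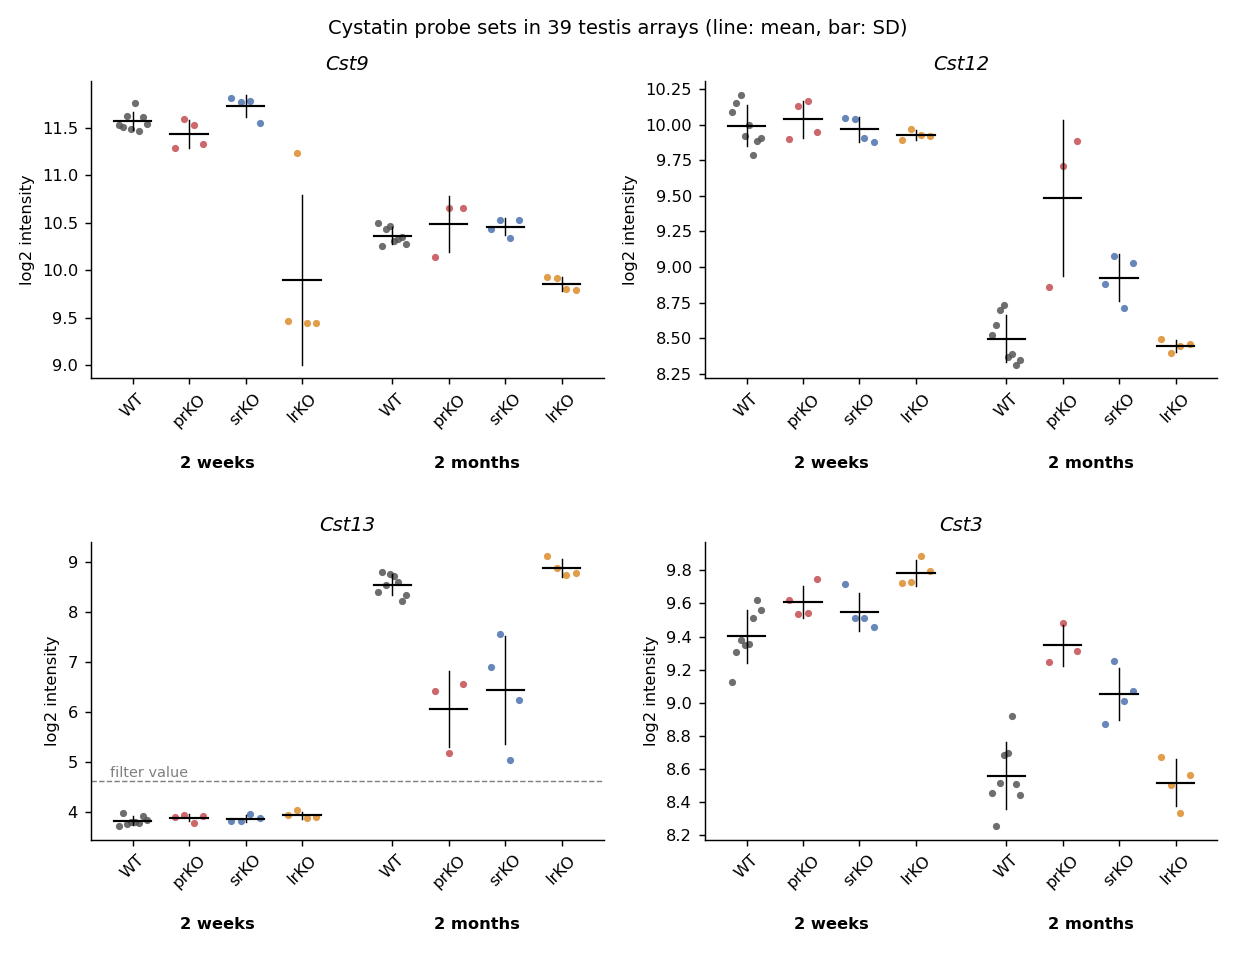
Log2 intensity of Cst9, Cst12, Cst13 and Cst3 in each of 39 testis arrays, by line and age; points are single animals, lines group means and bars SD. Cst9 is low in lrKO with replicate 2 at 2 weeks (11.24) near WT, Cst13 is seen only at 2 months and is lower in prKO and srKO there, and Cst12 and Cst3 at 2 months are highest in prKO.

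In WT, Cst9, Cst12 and Cst3 were lower at 2 months than at 2 weeks, and Cst13 was above the filter value at 2 months only. In that comparison 81.6% of all tested genes were past the threshold (adjusted p under 0.05, limma with Benjamini-Hochberg adjustment over all tested genes), so a count of 4 of 4, Cst13 included, is near the background. Of all tested genes 55% fell and 26.7% rose. The median log2 change over all tested genes was -0.24. Changes are given as log2 differences ± standard error.

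Cst9 lay between 11.47 and 11.76 (median 11.54) in 8 WT arrays at 2 weeks and between 10.26 and 10.50 (median 10.34) at 2 months. The 2 ranges did not overlap, and the fall was 2.3-fold (-1.20 ± 0.14, adjusted p = 1.8e-09). Cst12, a member of the CRES subgroup, went from 9.79 to 10.21 (median 9.96) at 2 weeks to 8.31 to 8.73 (median 8.46) at 2 months, a fall of 2.83-fold (-1.50 ± 0.09, adjusted p = 4.5e-17). Cst3, the widely expressed cystatin C, went from 9.13 to 9.62 (median 9.37) to 8.25 to 8.92 (median 8.51), a fall of 1.79-fold (-0.84 ± 0.08, adjusted p = 1.5e-12). In all of these the 8 WT arrays at 2 months lay below every WT array at 2 weeks.

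Cst13 had the opposite course. At 2 weeks it lay between 3.72 and 4.03 over the 20 arrays of all groups, below the filter value of 4.62, so the gene passed the filter only through its 2-month groups. In WT at 2 months it lay between 8.23 and 8.80 (median 8.58), and its mean of 8.56 was at least 15.3-fold above the filter value. No p is given for the difference between ages, since the gene passed the filter only through the older groups. Haploid germ cells appear between these ages. The 15 tested spermatid markers, such as the protamine gene Prm1 and the transition protein genes Tnp1 and Tnp2, had a median log2 change of 5.40, with 14 higher and 1 lower. The mean of that list was 5.48 to 5.64 in WT at 2 weeks and 10.64 to 10.91 at 2 months. Of 19 tested Sertoli cell markers, 1 was higher and 17 were lower (median -1.58), and their mean went from 9.08 to 9.31 down to 7.78 to 8.07. Their part in the cystatin values was not tested. In bulk RNA of an organ, fewer cells of a type and less RNA per cell cannot be told apart.

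Cst11 and Cst6 stayed below the filter value in every group and were not tested. Cst11 ranged from 3.83 to 4.45 over all arrays, and Cst6 from 3.52 to 4.30. The epididymis-rich prKO array at 2 months read 3.87 for Cst11 and 3.79 for Cst6, within the ranges of the other arrays.

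Cst9 in the lrKO line, the reason for its place on the list, had 3 arrays far below WT at 2 weeks and 1 close to it. The 4 lrKO arrays read 9.47, 11.24, 9.44 and 9.44 (9.90 ± 0.89, mean ± SD), against 11.57 ± 0.09 in 8 WT arrays. Replicate 2 was also below the lowest WT array (11.47), but by far less than the others. The mean difference was -1.67, or -2.12 without replicate 2. At 2 months the lrKO arrays read 9.92, 9.92, 9.80 and 9.79, all below the WT range of 10.26 to 10.50, with a mean difference of -0.51. The lrKO mean was 9.90 at 2 weeks and 9.86 at 2 months, while the WT mean was 11.57 and 10.37. The near-equal lrKO means rest on replicate 2. The lrKO median was 9.45 at 2 weeks and 9.86 at 2 months, and the other 2-week arrays lay below every 2-month lrKO array. No test is given for these values.

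In prKO and srKO, Cst9 was not past the threshold at 2 weeks or at 2 months. At 2 weeks prKO read 11.29, 11.59, 11.53 and 11.33 and srKO read 11.82, 11.77, 11.79 and 11.55. Only 2 of 4 prKO arrays lay below all WT arrays, and 3 of 4 srKO arrays lay above them. The changes were -0.13 ± 0.23 (95% interval -0.60 to 0.34, adjusted p = 0.76) in prKO and 0.16 ± 0.23 (-0.31 to 0.63, adjusted p = 0.80) in srKO. The standard error comes from a spread shared by all 4 genotypes, which the lrKO arrays widen: the SD was 0.89 in lrKO and at most 0.15 in the other 3 groups. Without lrKO replicate 2, the prKO minus srKO difference at 2 weeks (-0.30 ± 0.26, adjusted p = 0.53 with all arrays) passed at -0.30 (adjusted p = 0.025). That was the 1 call among 20 fits that left out 1 array. It passed in 0 of 12 other settings (lowest adjusted p = 0.073), among them the fit of only prKO and srKO, which holds no lrKO array.

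At 2 months the Cst9 arrays of prKO read 10.14, 10.66 and 10.65, and those of srKO 10.44, 10.53, 10.34 and 10.53. The low prKO value belonged to the epididymis-rich replicate 1, and the other two lay above all WT arrays. The change in prKO was 0.12 ± 0.09 (95% interval -0.07 to 0.32, adjusted p = 0.31) with all arrays. It was 0.29 (adjusted p = 0.006) without replicate 1, which leaves 2 prKO arrays. In arrays labelled srKO it was 0.09 ± 0.08 (-0.08 to 0.27, adjusted p = 0.47). Ordered by mean level, Cst9 was highest in srKO, WT and prKO at 2 weeks, then prKO, srKO and WT at 2 months, then lrKO at both ages. Neighbours in that order overlapped in their ranges, except for the step from prKO at 2 weeks (11.44) to prKO at 2 months (10.49).

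In the same lrKO arrays of 2 weeks, Cst12 lay inside the WT range and Cst3 above it. There 0 of 3 tested members passed, where 0.1% of all genes did; the third, Cst13, lay below the filter value. Cst12 in lrKO read 9.89, 9.97, 9.93 and 9.92, inside the WT range, and the change was -0.07 ± 0.08 (95% interval -0.22 to 0.09, adjusted p = 0.79). Cst3 read 9.72, 9.73, 9.89 and 9.79, and all 4 arrays lay above the highest WT array (9.62). That difference (0.38 ± 0.08) had an adjusted p of 0.075. It passed without WT replicate 7 (0.41, adjusted p = 0.042), and also when only WT replicates 1 to 4 were used (0.49, adjusted p = 0.0035). In all it passed in only 2 of 12 other settings and in 1 of 20 fits that left out 1 array. With both Cst3 probe sets averaged the difference was 0.22 and did not pass. At 2 months 0 of 3 members passed in lrKO, where 0.184% of all genes did. Cst12 (-0.05 ± 0.14, 95% interval -0.34 to 0.24), Cst13 (0.33 ± 0.31, -0.33 to 0.99) and Cst3 (-0.04 ± 0.10, -0.26 to 0.17) each had an interval that included 0. The Cst13 arrays labelled lrKO read 9.13, 8.89, 8.74 and 8.78, 2 of them above every WT array.

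Beside these lrKO values, the mean of 19 Sertoli cell markers at 2 weeks was 9.23 to 9.33 in lrKO and 9.08 to 9.31 in WT, with 1 marker, Rhox5, higher and 0 lower. The mean of 7 Leydig cell markers was 7.99 to 8.66 in lrKO and 8.21 to 9.18 in WT, with 0 of 7 past the threshold. Replicate 2 of lrKO held the highest value of its group (8.66). It was also narrowly the highest of its group in the epididymal (5.47) and other cystatin superfamily (5.73) lists. Replicate 1 read 5.45 in the epididymal list and replicate 3 read 5.71 in the cystatin list. In the remaining lists another lrKO array was the highest. At 2 months the Leydig list lay at 8.79 to 9.12 in lrKO and 9.06 to 9.59 in WT, with 2 markers, Hsd3b6 and Hsd17b3, lower and 0 higher. Their part in the Cst9 values was not tested.

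**Figure D2:**
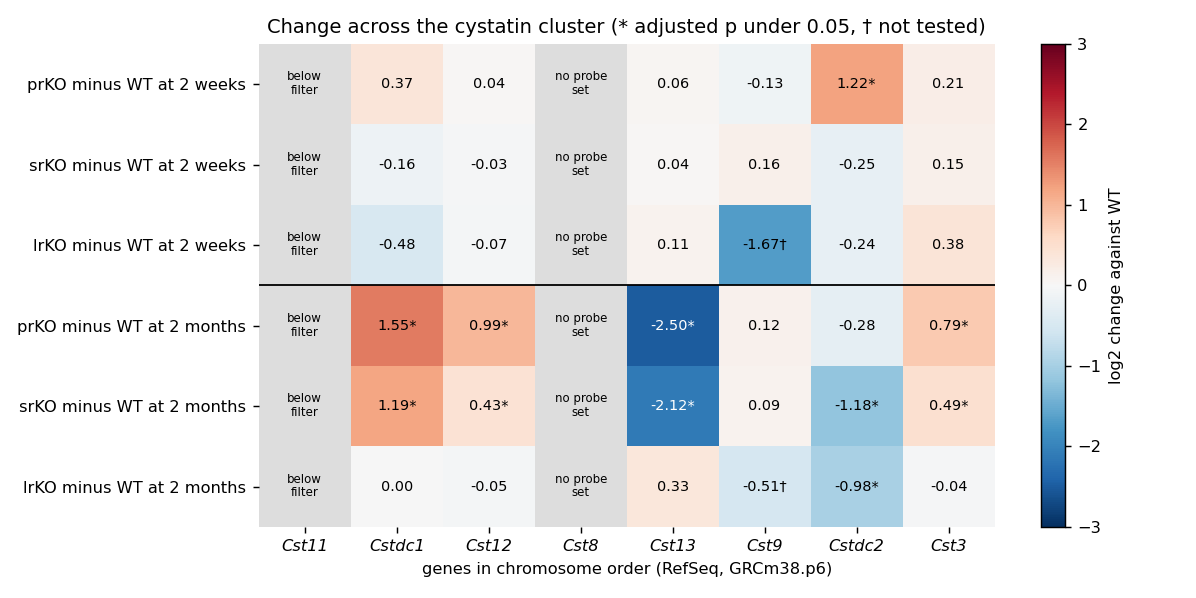
Log2 change against WT for the 8 genes of the cystatin row on chromosome 2, in chromosome order, for each line and age; an asterisk marks an adjusted p under 0.05, a dagger the Cst9 values that were not tested, and grey cells genes below the filter or without a probe set of 1 symbol. The lrKO value of Cst9 at 2 weeks (-1.67) stands beside Cstdc2 at -0.24, Cst13 is below the filter value in every group at 2 weeks, and at 2 months prKO and srKO share rises of Cstdc1, Cst12 and Cst3 and a fall of Cst13.

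At 2 weeks none of Cst9, Cst12 and Cst3 passed in prKO or srKO, and Cst13 lay below the filter value there. With Cst13 counted, 0 of 4 passed in prKO, where 10.5% of all genes passed, 0 of 4 in srKO (0.873% of all genes), and 0 of 4 between prKO and srKO (11.8%). Cst12 changed by 0.04 ± 0.08 in prKO (95% interval -0.11 to 0.20, adjusted p = 0.76) and -0.03 ± 0.08 in srKO (-0.18 to 0.13, adjusted p = 0.92). Its prKO arrays (9.90, 10.13, 10.17 and 9.95) and srKO arrays (10.05, 10.04, 9.91 and 9.88) all lay inside the WT range. Cst3 read 9.62, 9.54, 9.55 and 9.75 in prKO (0.21 ± 0.08, 0.04 to 0.38, adjusted p = 0.10) and 9.71, 9.51, 9.51 and 9.46 in srKO (0.15 ± 0.08, -0.02 to 0.31, adjusted p = 0.39). Against WT replicates 1 to 4 alone the Cst3 difference in prKO passed (0.32, adjusted p = 0.029). Against WT replicates 5 to 8 alone it was 0.10 and did not pass.

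At 2 months 3 of 4 tested members passed in prKO and 3 of 4 in srKO: Cst12 and Cst3 rose and Cst13 fell in both. In prKO 48.4% of all tested genes passed (26% higher and 22.4% lower) and in srKO 25.4% (14.7% higher and 10.8% lower), so the counts of members are read against a high background. The 2 comparisons share their WT arrays. The median over the 4 members was 0.45 in prKO and 0.26 in srKO, beside 0.02 and 0.03 over all tested genes.

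Cst12 at 2 months read 8.86, 9.71 and 9.89 in prKO, against 8.31 to 8.73 (median 8.46) in WT. All 3 prKO arrays lay above all WT arrays, and the lowest was the epididymis-rich replicate 1. The rise was 1.99-fold (0.99 ± 0.15, adjusted p = 2.6e-05), and 1.30 on the log2 scale without replicate 1. Arrays labelled srKO read 8.88, 9.07, 8.71 and 9.03, with 3 of 4 above all WT arrays, a rise of 1.35-fold (0.43 ± 0.14, adjusted p = 0.026). This rise did not pass against WT replicates 1 to 4 alone (0.29, adjusted p = 0.24). Leaving out srKO replicate 2 gave 0.38 (adjusted p = 0.098), and leaving out replicate 4 gave 0.40 (adjusted p = 0.075). By mean level Cst12 was highest in the 4 groups of 2 weeks, which overlapped one another, followed by prKO, srKO, WT and lrKO at 2 months, where each neighbouring pair overlapped.

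Set directly against each other, prKO exceeded srKO in Cst12 by 1.47-fold (0.56 ± 0.17, adjusted p = 0.022). This was the 1 member of 4 that passed in that comparison, where 25.6% of all genes did. Without the epididymis-rich prKO replicate 1 the difference was 0.87 (adjusted p = 0.00011). The call was lost without prKO replicate 2 (0.45, adjusted p = 0.092) or 3 (0.36, adjusted p = 0.18), without srKO replicate 3 (0.49, adjusted p = 0.070), and when only the groups compared were fitted (0.56, adjusted p = 0.17).

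Cst3 at 2 months read 9.24, 9.48 and 9.31 in prKO, all above the WT range of 8.25 to 8.92, a rise of 1.72-fold (0.79 ± 0.11, adjusted p = 1.3e-05). Arrays labelled srKO read 8.87, 9.25, 9.01 and 9.07, a rise of 1.41-fold (0.49 ± 0.10, adjusted p = 0.0013) with 3 of 4 above all WT arrays. Ordered by mean, Cst3 ran from lrKO, prKO, srKO and WT at 2 weeks to prKO, srKO, WT and lrKO at 2 months, and every neighbouring pair in that order overlapped. The difference between prKO and srKO (0.30 ± 0.13, 95% interval 0.03 to 0.56) had an adjusted p of 0.097. A second, dimmer probe set of Cst3 moved less. It lay at 6.89 to 6.95 in prKO, 6.19 to 6.78 in srKO and 6.17 to 6.91 in WT at 2 months, with mean differences from WT of 0.34 in prKO and 0.01 in srKO. With both probe sets averaged, the rise in srKO did not pass (0.25, adjusted p = 0.069). At 2 weeks the lrKO difference of that probe set was 0.05, beside 0.38 for the brighter one.

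Cst13 at 2 months read 6.42, 5.19 and 6.57 in prKO and 6.91, 7.56, 5.04 and 6.25 in srKO, against 8.23 to 8.80 in WT. Neither line overlapped WT, and both spread more widely (SD 0.76 and 1.08, against 0.21 in WT). The fall was 5.65-fold in prKO (-2.50 ± 0.35, adjusted p = 8.2e-06) and 4.33-fold in arrays labelled srKO (-2.12 ± 0.31, adjusted p = 4.8e-05). The lines did not differ from each other past the threshold (-0.38 ± 0.39, 95% interval -1.20 to 0.44, adjusted p = 0.51). By mean level the order was lrKO and WT at 2 months, which overlapped, then srKO and prKO at 2 months, which overlapped each other but not WT, then the 2-week groups.

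Markers of several cell types moved in the same 2-month arrays. Of 15 spermatid markers, 14 were lower and 1 higher in prKO (median -1.01), and 12 were lower and 0 higher in srKO (median -0.91). The list mean was 9.36 to 10.09 in prKO, 9.39 to 9.90 in srKO, 10.64 to 10.91 in WT and 10.85 to 10.93 in lrKO. The arrays with the lowest Cst13, prKO replicate 2 (5.19) and srKO replicate 3 (5.04), also had the lowest spermatid means of their groups (9.36 and 9.39). Of 19 Sertoli cell markers, 11 were higher and 2 lower in prKO (median 0.52), and 7 were higher and 2 lower in srKO (median 0.22). Their mean was 8.09 to 8.48 in prKO and 8.04 to 8.13 in srKO, against 7.78 to 8.07 in WT. Within prKO, replicate 1 was the lowest in Cst12 (8.86) and in the Sertoli list (8.09). Of 9 macrophage markers, 8 were higher in prKO (median 0.90) and 7 in srKO (median 0.68), and none was lower; macrophages also make cystatin C. Their mean was 7.24 to 7.92 in prKO, 7.12 to 7.66 in srKO and 6.53 to 6.69 in WT. Of 7 Leydig cell markers, 4 were higher and 1 lower in both prKO (median 1.35) and srKO (median 0.65), with means of 9.63 to 10.27 and 9.53 to 10.12 against 9.06 to 9.59 in WT. Of 5 endothelial markers 5 were higher in prKO (median 1.46) and 4 in srKO (median 0.54). Of 4 peritubular myoid markers 3 were higher in prKO (median 0.76) and 2 in srKO (median 0.28). Of 15 markers of meiotic prophase 9 were lower and 0 higher in prKO (median -0.34), while 2 were higher and 0 lower in srKO (median 0.09). Of 14 spermatogonial markers 4 were higher and 6 lower in prKO, and 1 was lower in srKO. Among 14 epididymal markers 2 were higher and 1 lower in prKO (median 0.17) and none passed in srKO. The part of these cells in the cystatin changes was not tested.

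**Figure D3:**
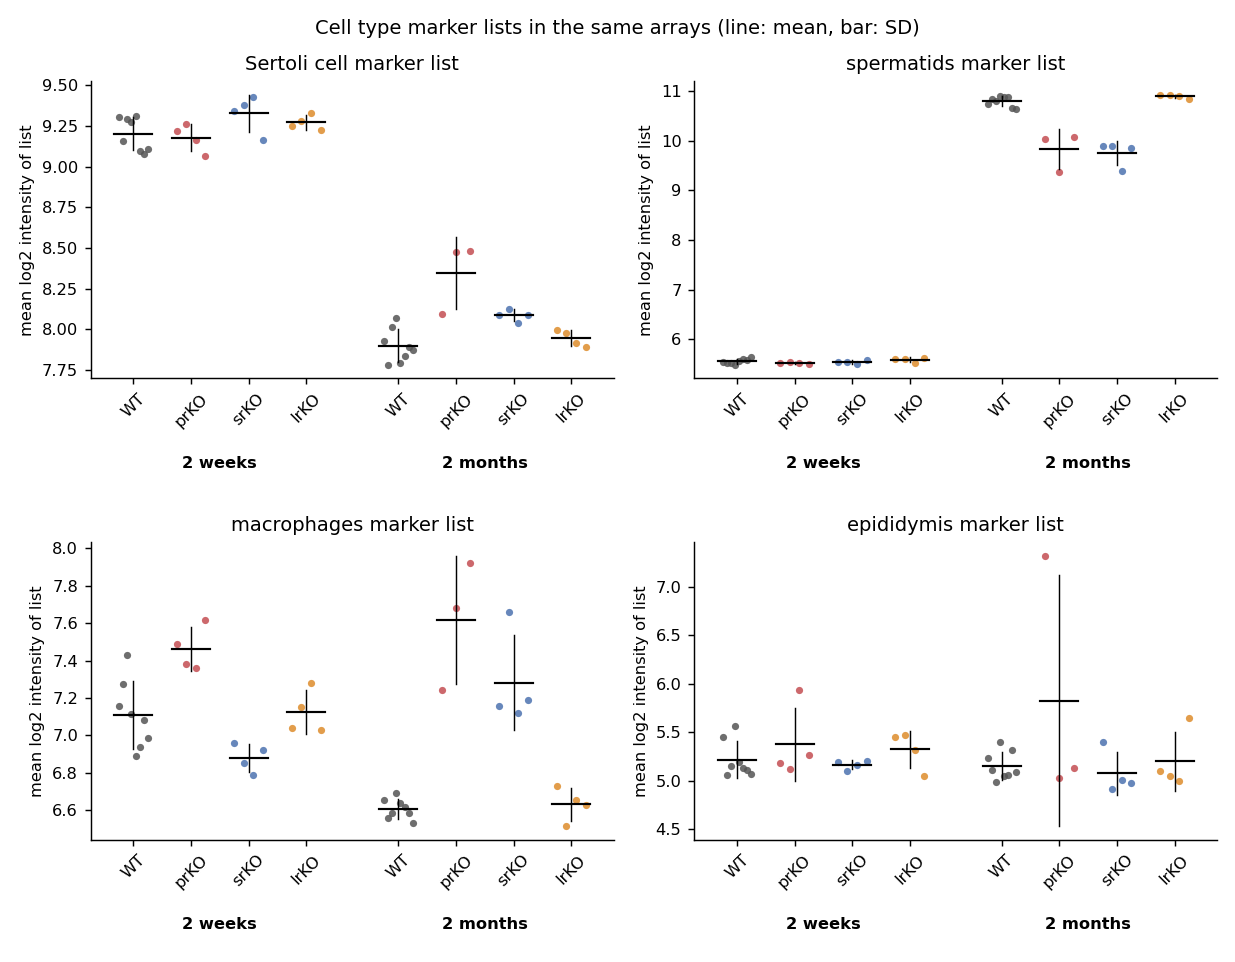
Mean log2 intensity of the Sertoli cell (19 genes), spermatid (15), macrophage (9) and epididymal (14) marker lists in each array, by line and age; points are single animals, lines group means and bars SD. At 2 months prKO and srKO are below WT in spermatid markers and above it in macrophage markers, and prKO replicate 1 alone stands at 7.32 in epididymal markers.

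Whether the difference of a line from WT changed with age was tested with all 8 groups in 1 model. For prKO 3 of 4 members passed (28.2% of all genes), among them Cst12 (0.95 ± 0.17, adjusted p = 4.8e-05) and Cst3 (0.58 ± 0.14, adjusted p = 0.0015). Without prKO replicate 1 at 2 months the Cst12 value was 1.26. For srKO 2 of 4 passed (17.2% of all genes), among them Cst12 (0.46 ± 0.16, adjusted p = 0.045). The remaining gene in both counts was Cst13 (-2.56 in prKO and -2.15 in srKO). Its 2-week signal lay below the filter value in every group, so these values restate its fall at 2 months, and no p is given. The Cst12 value for srKO lies close to the threshold: it kept its call in 7 of 12 other settings and in 22 of 39 fits that left out 1 array. Cst3 (0.34 ± 0.13, adjusted p = 0.067) gained a call for srKO in 1 of 12 settings and in 4 of 39 such fits. For lrKO 0 of 3 passed, with 0.1% of all genes, and Cst12 changed by 0.02 ± 0.16 (95% interval -0.31 to 0.34, adjusted p = 0.99).

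The 2 other cystatin-domain genes of the row moved apart from each other. Cstdc1, next to Cst12, read 7.82, 9.14 and 9.19 in prKO at 2 months, against 6.63 to 7.60 in WT, a rise of 2.94-fold (1.55 ± 0.26, adjusted p = 6.6e-05). Replicate 1 was again the lowest, and without it the rise was 2.00 on the log2 scale. The difference between prKO and srKO in Cstdc1 did not pass with all arrays (0.36, adjusted p = 0.39) but did without replicate 1 (0.81, adjusted p = 0.025). Arrays labelled srKO read 8.32, 8.85, 7.85 and 8.39, a rise of 2.28-fold (1.19 ± 0.24, adjusted p = 0.00085), with all 4 above WT. At 2 weeks it passed in no line. In WT it fell with age (-1.50 ± 0.19, adjusted p = 5.9e-09), as Cst12 did. Across arrays it tracked Cst12 closely, with Pearson r of 0.78 over the 20 arrays of 2 weeks and 0.94 over the 19 arrays of 2 months. These points share genotype groups and cell makeup, and the coefficients are a description.

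Cstdc2, between Cst9 and Cst3, was higher in prKO at 2 weeks, at 7.11, 6.37, 6.47 and 6.77 against 5.17 to 5.81 in WT. The rise was 2.32-fold (1.22 ± 0.13, adjusted p = 2.7e-06), and prKO exceeded srKO by 1.47 ± 0.15 (adjusted p = 2.7e-06). At 2 months Cstdc2 was lower in arrays labelled srKO, at 4.99, 5.14, 5.54 and 4.93 against 5.83 to 6.99 in WT (-1.18 ± 0.18, adjusted p = 6.4e-05). Arrays labelled lrKO read 5.19, 5.12, 5.54 and 5.56, again all below WT (-0.98 ± 0.18, adjusted p = 0.019). That lrKO call was lost when only WT replicates 5 to 8 were used (-0.75, adjusted p = 0.17). It was also lost without lrKO replicate 1 (-0.92, adjusted p = 0.098), replicate 2 (-0.90, adjusted p = 0.13) or replicate 3 (-1.04, adjusted p = 0.052). In prKO of the same age the change was -0.28 ± 0.20 (95% interval -0.70 to 0.14, adjusted p = 0.27), and prKO exceeded srKO (0.90 ± 0.23, adjusted p = 0.0072).

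**Figure D4:**
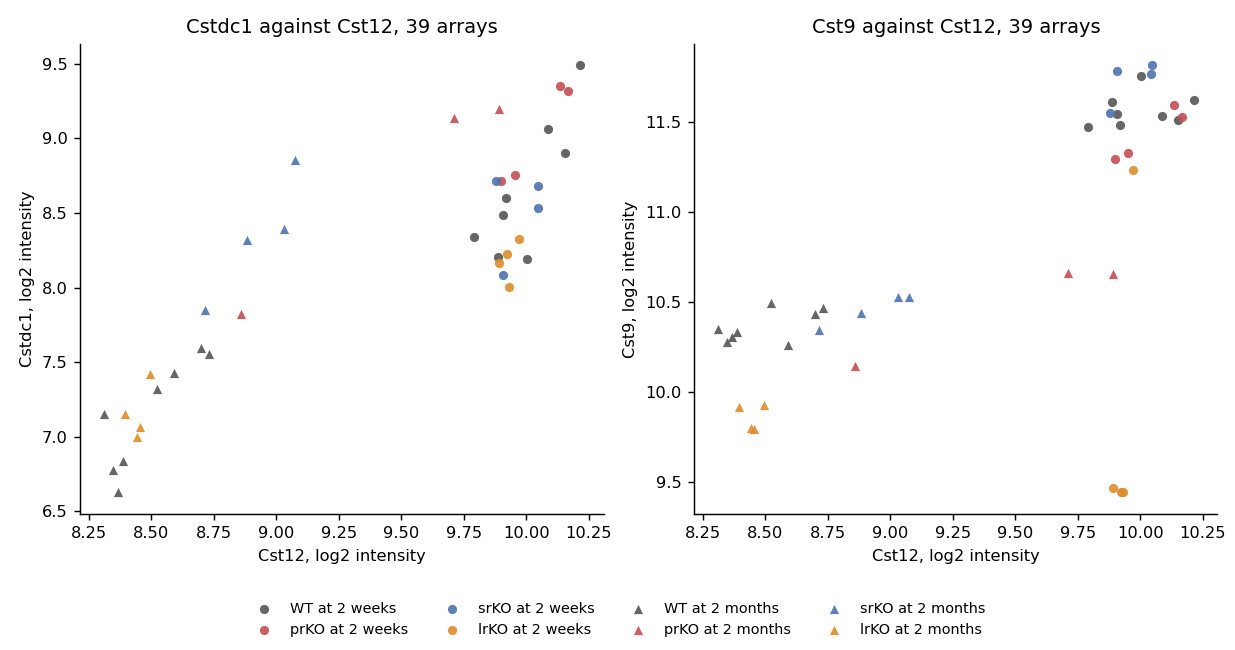
Log2 intensity of Cstdc1 (left) and Cst9 (right) against Cst12 in 39 arrays; circles are 2-week and triangles 2-month animals, coloured by line. At 2 months Cstdc1 climbs with Cst12 through srKO to 2 prKO arrays, whereas 3 lrKO arrays at 2 weeks have WT-like Cst12 and Cst9 near 9.4.

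Outside the list, 12 of 23 other cystatin superfamily genes were tested. In prKO 4 rose and 0 fell at 2 weeks (median 0.08), and 5 rose and 1 fell at 2 months (median -0.01). In srKO 1 rose at 2 weeks, and 4 rose and 2 fell at 2 months (median 0.00); in lrKO 0 passed at 2 weeks and 1 fell, Cstdc2, at 2 months. Of all tested genes 10.5% were called in prKO and 0.873% in srKO at 2 weeks, and 48.4% and 25.4% at 2 months. In lrKO 0.1% were called at 2 weeks and 0.184% at 2 months. Cystatin B (Cstb), an inhibitor that stays inside the cell, rose in prKO at 2 weeks (0.45 ± 0.09, adjusted p = 0.0024), in prKO at 2 months (1.57 ± 0.16, adjusted p = 2.2e-07) and in srKO at 2 months (0.80 ± 0.14, adjusted p = 0.0003). The fetuin Ahsg, a secreted glycoprotein with cystatin domains, rose 0.99 ± 0.17 in prKO at 2 weeks, 2.32 ± 0.32 in prKO at 2 months and 1.71 ± 0.29 in srKO at 2 months (adjusted p = 0.00074, 8.7e-06 and 0.00021). Its 3 prKO arrays at 2 months ran from 6.76 to 9.05, all above the WT range of 5.34 to 6.13. Without prKO replicate 1 the rise of Ahsg was 3.01, and prKO exceeded srKO by 1.30 (adjusted p = 0.0011), against 0.61 (adjusted p = 0.23) with all arrays.

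Cstl1, a cystatin-like gene, changed in the same directions as Cst13. In WT it rose from 4.93 to 5.53 at 2 weeks to 9.04 to 9.92 at 2 months (4.23 ± 0.20, adjusted p = 2.3e-20). At 2 months prKO read 7.24, 6.33 and 7.79 and srKO 7.90, 8.16, 5.97 and 6.89, all below WT, with falls of 5.18-fold (-2.37 ± 0.34, adjusted p = 1.3e-05) and 4.8-fold (-2.26 ± 0.31, adjusted p = 2.1e-05). Its lowest arrays, prKO replicate 2 and srKO replicate 3, were those lowest in Cst13. In arrays labelled lrKO it read 9.29 to 9.94 (0.13 ± 0.31, 95% interval -0.52 to 0.78).

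Papain-like cathepsins are targets of inhibitory cystatins such as cystatin C (Cst3), while Cst12 belongs to the subgroup that lacks sites needed for this. All 11 listed cysteine protease genes, cathepsins and the asparaginyl protease legumain (Lgmn), were tested. In prKO at 2 weeks 6 rose and 0 fell (median 0.40), in prKO at 2 months 10 rose and 0 fell (median 1.31), and in srKO at 2 months 8 rose and 0 fell (median 0.75). In srKO at 2 weeks and in lrKO at both ages 0 of 11 passed (medians 0.01, 0.04 and -0.14). In these comparisons 0.873%, 0.1% and 0.184% of all tested genes passed. Of all tested genes 10.5% were called in prKO at 2 weeks, 48.4% in prKO at 2 months (26% higher) and 25.4% in srKO at 2 months (14.7% higher). In WT 10 of 11 proteases fell with age (median -1.09), as did 55% of all genes. The medians over all tested genes lay between -0.01 and 0.03 in the comparisons with WT.

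Cathepsin H (Ctsh), an aminopeptidase of the lysosome, lay at 8.11 to 8.83 in prKO at 2 weeks against 6.53 to 7.67 in WT (1.53 ± 0.17, adjusted p = 5.6e-06). At 2 months it lay at 8.51 to 9.17 in prKO and 7.46 to 8.26 in srKO against 6.69 to 7.32 in WT (1.87 ± 0.17, adjusted p = 5.4e-08, and 0.78 ± 0.15, adjusted p = 0.00069). Cathepsin C (Ctsc), a lysosomal enzyme that removes dipeptides from the ends of proteins and activates other proteases, rose from 6.35 to 6.89 in WT at 2 months to 8.62 to 9.30 in prKO (2.41 ± 0.16, adjusted p = 3e-09) and 7.66 to 8.46 in srKO (1.35 ± 0.14, adjusted p = 1.4e-06). Cathepsin S (Ctss), used by antigen-presenting cells, rose 1.83 ± 0.21 in prKO (adjusted p = 9.4e-07) and 1.56 ± 0.19 in srKO (adjusted p = 4.9e-06). Cathepsin B (Ctsb) rose 1.70 ± 0.12 and 1.00 ± 0.11, and Lgmn 1.60 ± 0.14 and 0.76 ± 0.13, each past the threshold. Between the lines, 6 of 11 were higher in prKO than in srKO at 2 months and 0 lower, where 25.6% of all genes were called. Ctsh (1.09 ± 0.19, adjusted p = 0.0006) and Ctsc (1.06 ± 0.18, adjusted p = 0.00056) were among the 6. Without prKO replicate 1, prKO also exceeded srKO in Ctss (0.62, adjusted p = 0.031, against 0.26 with all arrays) and Ctsl (0.71, adjusted p = 0.0039, against 0.47).

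The marker lists given above moved in the same 2-month arrays. At 2 weeks in prKO, 5 of 7 Leydig cell markers were higher and 0 lower (median 1.65), with list means of 10.03 to 10.44 against 8.21 to 9.18 in WT. Of 9 macrophage markers 3 were higher (median 0.22; 7.36 to 7.62 against 6.89 to 7.43), and of 5 endothelial markers 3 (median 0.44; 7.87 to 8.23 against 7.28 to 8.22). The part of these cells in the protease values was not tested.

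**Figure D5:**
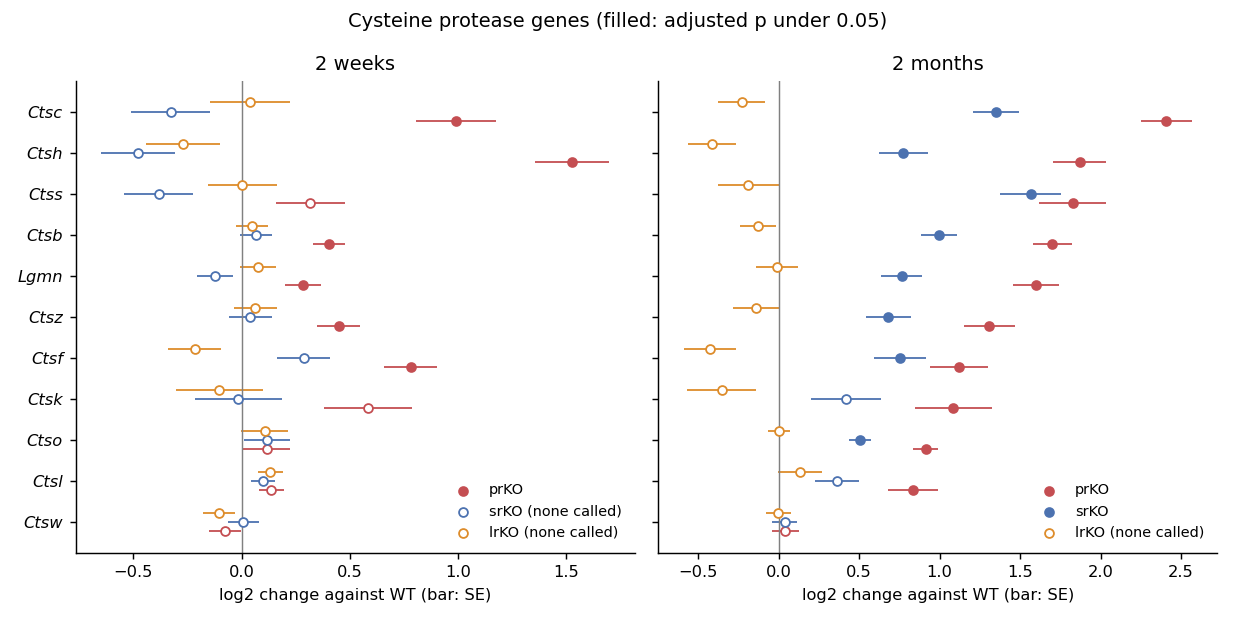
Log2 change against WT with its standard error for 11 cysteine protease genes, at 2 weeks (left) and 2 months (right); filled points have an adjusted p under 0.05. At 2 months 10 genes are called in prKO and 8 in srKO, all higher than WT, and none in lrKO.

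Genes with the most similar array pattern were ranked by the smaller of 2 Pearson coefficients, one over the 20 arrays of 2 weeks and one over the 19 arrays of 2 months. For Cst9 these were Syn1 (0.68 and 0.68), Ccm2l (0.73 and 0.67), Atp23 (0.71 and 0.66), G3bp2 (0.67 and 0.65) and Nfya (0.65 and 0.70). Atp23, for example, averaged 7.08 in lrKO and 7.35 in WT at 2 weeks. Cst9 was chosen for its low lrKO values, and the lrKO arrays enter both coefficients. Its ranking therefore favours genes that are low in lrKO and is no separate support for that fall. For Cst12 the nearest were Lrp11 (0.79 and 0.89), Cstdc1 (0.78 and 0.94) and Nrbp1 (0.74 and 0.86). For Cst3 they were Atraid (0.79 and 0.92), Cd81 (0.79 and 0.89) and Sec22b (0.75 and 0.81). For Cst13 they were Adam4 (0.57 and 0.74), Ndufa5 (0.56 and 0.61) and Kat8 (0.56 and 0.71), and the 2-week part of these is measured below the filter value. The arrays compared share their genotype groups and cell makeup, and no p is given.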

How the data were processed

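Biotin-labelled cDNA from whole testis of 39 mice was hybridised to Affymetrix arrays; 1 extraction label names the adrenal gland. The authors deposited log2 intensities per probe set normalized with RMA, per the submitters' processing notes; the sources used here give neither its version nor a genome build. Of 41345 probe sets, 23521 carried 1 gene symbol, 1814 several and 16010 none listed, in GEO's platform annotation; only the first were used (brightest probe set per gene). Of these, 23328 had an Entrez identifier in the RefSeq table, and 0 symbols changed. Genes with at least 1 group mean above 4.62 (25th percentile of all values) were tested.

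Groups came from sample titles. Linear models (limma 3.58.1, lmFit and eBayes, R 4.3.3) held the 4 genotypes of an age, or, between ages, all 8 groups. Two-sided p-values were Benjamini-Hochberg adjusted over 19007 genes, with a threshold of 0.05. The script was tested on simulated data. Arrays give no depth, so their number limits precision. Each sample is labelled a biological replicate.

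The members, gene lists and tests were chosen with earlier results of these data known. Named genes were the members, up to 4 called genes with the largest change per list of related cystatins and proteases in each comparison, the 2 most changed markers of a list set beside a member, Adam7, and the 3 most similar genes per member (5 for Cst9); Prkar1a served as label check. Alternatives were other filters, averaged probe sets, renewed quantile normalization, centring, array weights, trend and robust eBayes, other sets of groups, a replicate block, WT replicates 1 to 4 or 5 to 8 alone, and leaving out the array rich in epididymal markers or each array in turn. Same-numbered arrays mostly did not deviate together, so the replicate number was not used as a pairing in the main fits. With so few arrays per group this check cannot exclude one. Cross-hybridisation between related cystatins was not tested.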

Additional observations from a re-analysis of the deposited data

Results flagged for a closer look

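Cst9 in lrKO at 2 weeks had 1 array far from the others of its group. Replicate 2 read 11.24, and the nearest other array read 9.47, a gap of 0.985 of the range of the group. Cst9 was chosen for its lrKO values, so this is a description of them. Among 63 groups of arrays looked at in this way for the cystatin genes, 1 had such an array, and chance gives about 1 in 20.

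Differences that themselves passed a test are listed with their sizes on the log2 scale. Between prKO and srKO these were Cstdc2 at 2 weeks (1.47, adjusted p = 2.7e-06, limma), Cst12 at 2 months (0.56, adjusted p = 0.022) and Cstdc2 at 2 months (0.90, adjusted p = 0.0072). The difference of prKO from WT moved between 2 weeks and 2 months for Cst12 (0.95, adjusted p = 4.8e-05), Cst3 (0.58, adjusted p = 0.0015), Cstdc1 (1.18, adjusted p = 0.0088), Cstdc2 (-1.50, adjusted p = 1.1e-05) and Cstl1 (-2.33, adjusted p = 8.2e-06). Without prKO replicate 2 or 3 at 2 months the Cstdc1 value did not pass (0.97, adjusted p = 0.052, and 0.94, adjusted p = 0.063). The difference of srKO from WT moved for Cst12 (0.46, adjusted p = 0.045), Cstdc1 (1.35, adjusted p = 0.0032), Cstdc2 (-0.92, adjusted p = 0.0038) and Cstl1 (-2.38, adjusted p = 5.2e-06). The values of Cst13, -2.56 for prKO and -2.15 for srKO, rest on 2-week signals below the filter value and restate its fall at 2 months.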

How the results depend on the processing

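Of 1840 alternative values of the members, 1794 stayed on the same side of the threshold or, where untested, kept their direction and about their size. Of the rest, 31 lost a call, 13 gained one, 0 reversed and 2 untested values moved. Both of the last are Cst9 in lrKO without lrKO replicate 2 at 2 weeks: the difference from WT becomes -2.12 and its change with age 1.61. Among the 1794, 25 values changed sign while called in neither fit. The count of members past the threshold became 1 against WT replicates 1 to 4 alone in prKO at 2 weeks (Cst3). In lrKO at 2 weeks it became 1 against WT replicates 1 to 4 alone. It also became 1 with a replicate block (Cst3, 0.49, adjusted p = 0.012), which rests on the same WT arrays. When single arrays were left out, the count in lrKO at 2 weeks ran from 0 to 1. Between prKO and srKO it ran from 0 to 1 at 2 weeks and from 0 to 1 at 2 months when single arrays were left out, and at 2 months it became 2 after quantile normalization again and 0 with only the groups compared. For the change of srKO with age it became 1 with no filter, after quantile normalization again, after centring and against WT replicates 1 to 4 or 5 to 8 alone, and ran from 1 to 2 when single arrays were left out. Cst12 was the gene lost, while Cst3 gained a call with array weights (0.37, adjusted p = 0.025) and in 4 of 39 fits without 1 array.

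With the replicate number as a block, Cst12 in srKO at 2 months also lost its call (0.29, adjusted p = 0.25). Of 45 same-numbered pairs of arrays 8 correlated above 0.1 (range -0.62 to 0.44). In 15 of 90 cases an array correlated best with its own number. The main fits therefore use no pairing, though these values cannot exclude one. Over settings other than leaving out 1 array, the number of genes called ran from 598 (replicate block) to 4802 (WT replicates 5 to 8 alone) in prKO and from 3 to 942 in lrKO at 2 weeks, and from 39 to 2234 in srKO at 2 weeks. At 2 months it ran from 6771 to 9247 in prKO, 3626 to 5460 in srKO and 22 to 145 in lrKO. Signals below 4.62 limit Cst11, Cst6 and, at 2 weeks, Cst13.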
